A study of Mus musculus with 6 samples.

Results

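Gm47118, Gm28039, Gm17334 and Gm15350 are 4 little-described mouse genes whose exons lie partly over exons of better known genes, Edn1, Zfp644, Irf1 and Atp11a in that order. They are 4 of the 55341 genes in the count table of a sequencing study of the aorta of miRNA-26b-deficient mice. All 4 were chosen by name because their counts were far lower in miRNA-26b-/- than in miRNA-26b+/+ libraries, so their own values in that contrast are given as a description with no test. With miRNA-26b present they received 47 to 271 counts each per library. Without it Gm47118 and Gm28039 received 0 counts in every library, Gm17334 received at most 1 and Gm15350 received 6 to 35. The 4 known genes underneath them had 247 to 2746 counts in all 6 libraries, and none of these 4 known genes passed the test between the genotypes.

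The libraries were made from the aortic arch and thoracic aorta of mice 8 weeks old on a normal chow diet. The miRNA-26b-/- group has 3 libraries, M2626, M2627 and M2628, and the miRNA-26b+/+ group has 3, M2629, M2630 and M2631, which the labels call naive. The knockout line came from R1/E (129/Sv) embryonic stem cells in which a floxed stretch of an intron of Ctdsp1 with the miRNA was later deleted by CreERT2 and tamoxifen, and the CreERT2 transgene was then bred out. The labels give C57BL/6NCrl for both groups, and nothing in the sources says that the controls were littermates. The labels name endothelial cells, but the summed level of 6 smooth muscle markers was 30499 to 41073 CPM (counts per 1000000 counts of the library) against 524 to 1799 CPM for 8 endothelial markers, so the samples are described here as whole vessel. Total counts per library were 25706728 to 33345037. The targeted Mir26b had 0 counts in 5 libraries and 20 in M2630, which is too few to check the genotypes. The labels do not say that each library is a separate animal, and p-values measure the spread between these libraries.

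An antisense gene is copied from the opposite strand of a coding gene, and its RNA carries the reverse complement of the coding gene's exons wherever the exons meet. A library that does not keep strand cannot tell such a pair apart over the shared bases. Edn1 encodes preproendothelin-1, the precursor of the vasoconstrictor peptide endothelin-1, which is made mainly by the endothelium of vessels. Irf1 encodes interferon regulatory factor 1, a transcription factor that acts in the interferon gamma response. Zfp644 encodes a zinc finger protein that works with the G9a/GLP histone methyltransferases. Atp11a encodes a P4-type ATPase, a flippase that moves phosphatidylserine to the inner side of the plasma membrane.

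The miRNA removed in these mice gives 2 mature strands, whose RefSeq sequences (GRCm38.p6, chromosome 1) are printed with the seed, bases 2 to 8, in capitals, because the seed is the part that pairs with targets.
mmu-miR-26b-5p: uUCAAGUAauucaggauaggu
mmu-miR-26b-3p: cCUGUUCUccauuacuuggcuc
The reverse complement of the 5p seed, TACTTGA, was in 0 of the 5 annotated transcripts of the 4 overlapping genes and in 0 of the 4 3′ untranslated regions of the known genes, searched on the transcribed strand. Among all transcripts within 10% of their lengths, 1.15% to 3.59% held it, and among all 3′ untranslated regions within 10% of the length of the 4, 5.40% to 25.6% held it. The reverse complement of the 3p seed, AGAACAG, was in 0 of the 5 transcripts and 0 of the 4 untranslated regions as well, where 3.22% to 11.2% and 9.04% to 37.9% of sequences of like length held it. The untranslated regions searched are those of a single annotated transcript of each known gene. Other transcripts of the known genes, and matches to only part of a seed, were not searched.

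Gm47118 (ENSMUSG00000113619, antisense, GRCm38 chr13:42302298-42304991, minus strand) has 400 exonic bases in 2 exons. Its second exon, of 365 bases, lies between exons 1 and 2 of Edn1 (ENSMUSG00000021367, chr13:42301476-42307990, plus strand), and its first exon, of 35 bases, lies wholly within coding exon 3 of Edn1. Those 35 bases are the only ones that both genes hold, 8.75% of Gm47118 and 1.64% of Edn1. The exon of Edn1 and the same bases as read in Gm47118 are printed from the GENCODE M21 transcripts to show the overlap, with the shared bases in capitals.
Edn1 exon 3, chr13:42304946-42305104, plus strand: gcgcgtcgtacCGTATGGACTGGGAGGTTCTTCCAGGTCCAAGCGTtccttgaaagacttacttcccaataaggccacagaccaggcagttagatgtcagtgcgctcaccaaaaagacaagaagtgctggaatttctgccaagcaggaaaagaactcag
Gm47118 exon 1, chr13:42304957-42304991, minus strand: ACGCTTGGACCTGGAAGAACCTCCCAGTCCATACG
The second sequence is the reverse complement of the capitals in the first, so a read of these bases without strand matches both.

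Gm28039 (ENSMUSG00000098302, processed transcript, chr5:106557946-106696571, minus strand) differs from the other members in that it lies on the same strand as its known gene, Zfp644 (ENSMUSG00000049606, chr5:106616739-106697287). All of its 254 exonic bases are shared. A segment of 111 bases at its 3′ end is also exon of the long intergenic RNA gene Gm28050, a coding exon of 103 bases is shared with 6 of the 18 Zfp644 transcripts, 4 of them coding there, and 40 bases at its 5′ end lie in the first exon of 11 Zfp644 transcripts, where they are untranslated in 8. Gm28050 had 0 counts in all 6 libraries. As reads over several genes were counted for each of them, no counted read touched the 111-base segment, and each count of Gm28039 is also a count of Zfp644. A library that kept strand would not separate this pair either. The coding exon is printed because these are the bases, with the 40 untranslated ones, that its counts come from; all are shared and so all are in capitals.
Zfp644 exon 6, also Gm28039, chr5:106619540-106619642, minus strand: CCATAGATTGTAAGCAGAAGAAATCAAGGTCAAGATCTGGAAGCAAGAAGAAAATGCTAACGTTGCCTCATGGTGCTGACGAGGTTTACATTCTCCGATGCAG

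Gm17334 (ENSMUSG00000091191, annotated as protein coding, chr11:53772281-53773187, minus strand) is a single exon of 907 bases that spans coding exon 3 of Irf1 (ENSMUSG00000018899, chr11:53770014-53778374, plus strand) and intron on both sides of it. It shares 135 bases, 14.9% of its length and 3.40% of the exonic bases of Irf1. Of these, 100 are the whole of exon 3, which 7 of the 10 Irf1 transcripts hold, and 35 belong to a retained-intron transcript. The exon is printed in both directions to show that all of it lies within Gm17334.
Irf1 exon 3, chr11:53772839-53772938, plus strand: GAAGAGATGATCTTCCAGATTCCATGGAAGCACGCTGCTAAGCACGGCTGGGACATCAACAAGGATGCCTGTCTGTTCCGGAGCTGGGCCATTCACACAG
Gm17334 over the same bases, minus strand: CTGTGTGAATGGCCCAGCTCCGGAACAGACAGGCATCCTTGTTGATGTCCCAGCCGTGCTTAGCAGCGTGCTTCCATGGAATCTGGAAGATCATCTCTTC
The 772 bases of Gm17334 that no other gene shares lie in introns of Irf1, where reads of Gm17334 and of unspliced Irf1 RNA cannot be told apart in a count table.

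Gm15350 (ENSMUSG00000084780, antisense, chr8:12828335-12833865, minus strand) has 2 transcripts with 619 exonic bases, of which 199, or 32.1%, lie over coding exons 12 and 13 of Atp11a (ENSMUSG00000031441, chr8:12757014-12868728, plus strand). The shared part of exon 12 is 116 bases and that of exon 13 is 83 bases. Both exons are printed with the shared bases in capitals, since Gm15350 is the member that kept counts in the miRNA-26b-/- libraries.
Atp11a exon 12, chr8:12828449-12828646, plus strand: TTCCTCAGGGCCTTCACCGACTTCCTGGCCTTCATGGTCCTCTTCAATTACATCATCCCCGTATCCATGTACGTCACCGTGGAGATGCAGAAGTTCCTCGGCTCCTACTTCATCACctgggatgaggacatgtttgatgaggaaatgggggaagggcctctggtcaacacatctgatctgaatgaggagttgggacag
Atp11a exon 13, chr8:12831085-12831258, plus strand: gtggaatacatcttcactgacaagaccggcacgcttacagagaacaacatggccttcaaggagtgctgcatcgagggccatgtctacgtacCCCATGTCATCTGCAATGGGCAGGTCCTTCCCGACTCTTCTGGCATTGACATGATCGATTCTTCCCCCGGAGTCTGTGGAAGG
The capitals stand at the start of exon 12 and at the end of exon 13, so the bases of either exon nearest the other lie outside Gm15350.

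**Figure D1:**
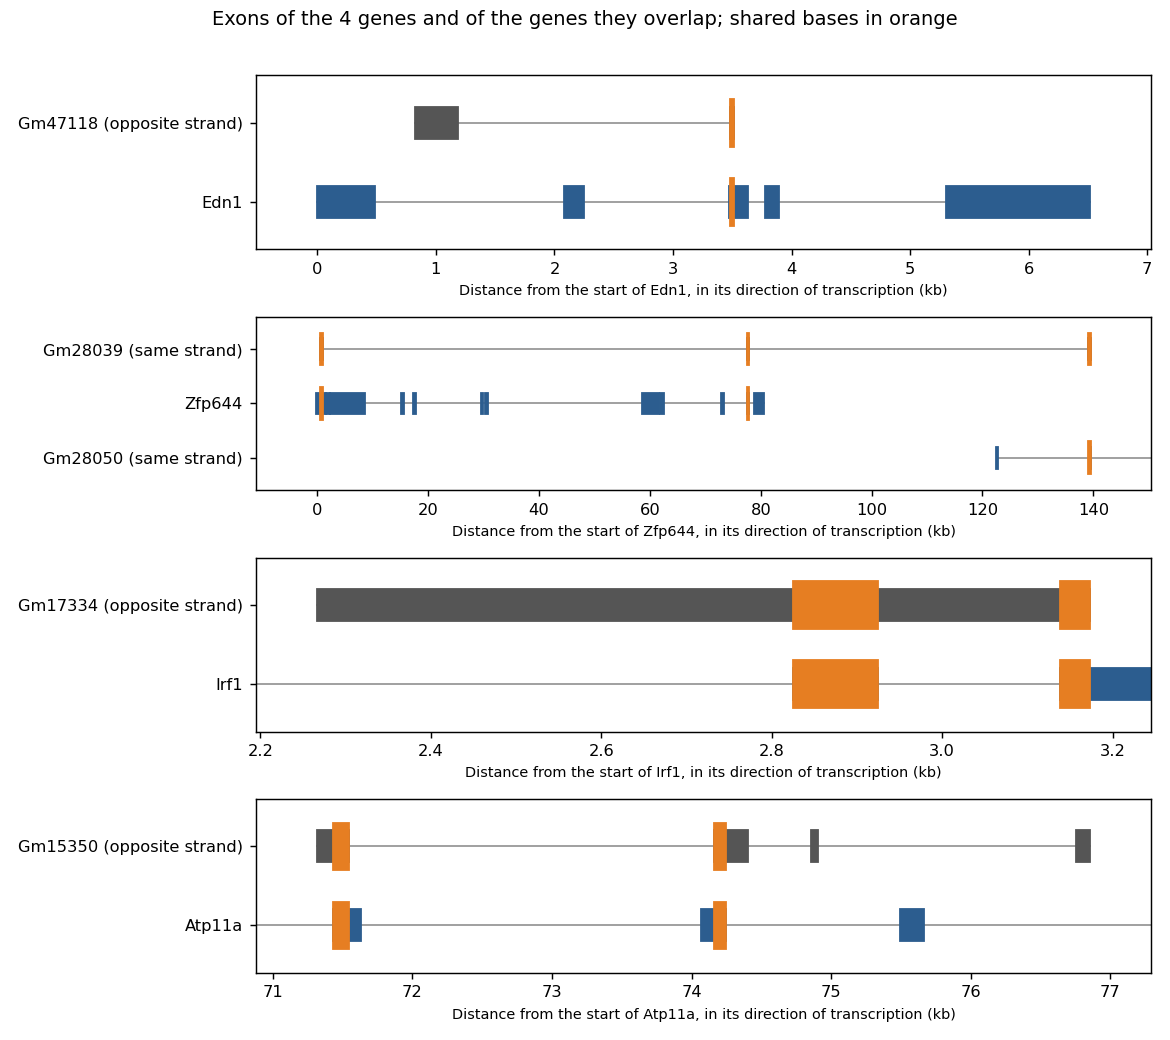
Exons (boxes) and introns (lines) of each of the 4 genes, in grey, above the gene it overlaps, in blue, against the distance in kb from the start of that known gene along its transcription, with shared bases in orange. Gm47118 shares 35 bases, Gm28039 all 254, Gm17334 135 and Gm15350 199, the Irf1 and Atp11a panels show only the stretch around the overlap, and the narrowest boxes are drawn wider than to scale so that they can be seen.

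Gm47118 had 0, 0 and 0 counts in M2626, M2627 and M2628, and 104, 133 and 80 in M2629, M2630 and M2631. Its level was 3.62 ± 1.12 CPM (SD, n = 3) in the miRNA-26b+/+ libraries. With 3 counts in a library of average depth, 0.102 CPM, taken as the most that counts of 0 allow, it was at least 35.4-fold lower in miRNA-26b-/-. The floors used here cover counting error only, and the spread between libraries at this level is larger than that. The groups do not overlap, and every miRNA-26b-/- library was at 0.

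Gm28039 had 0 counts in each of M2626, M2627 and M2628, and 84, 257 and 116 in M2629, M2630 and M2631. Its miRNA-26b+/+ level was 5.31 ± 3.55 CPM (SD, n = 3), with M2630 more than double the other two, and it was at least 51.9-fold lower in miRNA-26b-/-. Without M2630 the bound was 32.4-fold. No counted read of the 3 miRNA-26b-/- libraries touched the 103-base coding exon of Zfp644 printed above.

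Gm17334 had 0, 0 and 1 counts in M2626, M2627 and M2628, and 60, 145 and 47 in M2629, M2630 and M2631. Its miRNA-26b+/+ level was 2.93 ± 2.04 CPM (SD, n = 3). With the same floor of 3 counts, though M2628 held 1, it was at least 28.6-fold lower in miRNA-26b-/-, or 17.3-fold without M2630. Again M2630 was the highest library, and the groups do not overlap. The whole of Irf1 exon 3 therefore held at most 1 counted read in each miRNA-26b-/- library.

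Gm15350 had 6, 28 and 35 counts in M2626, M2627 and M2628, and 197, 271 and 180 in M2629, M2630 and M2631. The mean level was 0.769 ± 0.506 CPM without miRNA-26b and 7.41 ± 2.14 CPM with it (SD, n = 3 each), a ratio of 9.64. Without M2628 the ratio was 13.9. It was the one member with counts in every library, and its highest miRNA-26b-/- library stayed far below its lowest miRNA-26b+/+ library.

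**Figure D2:**
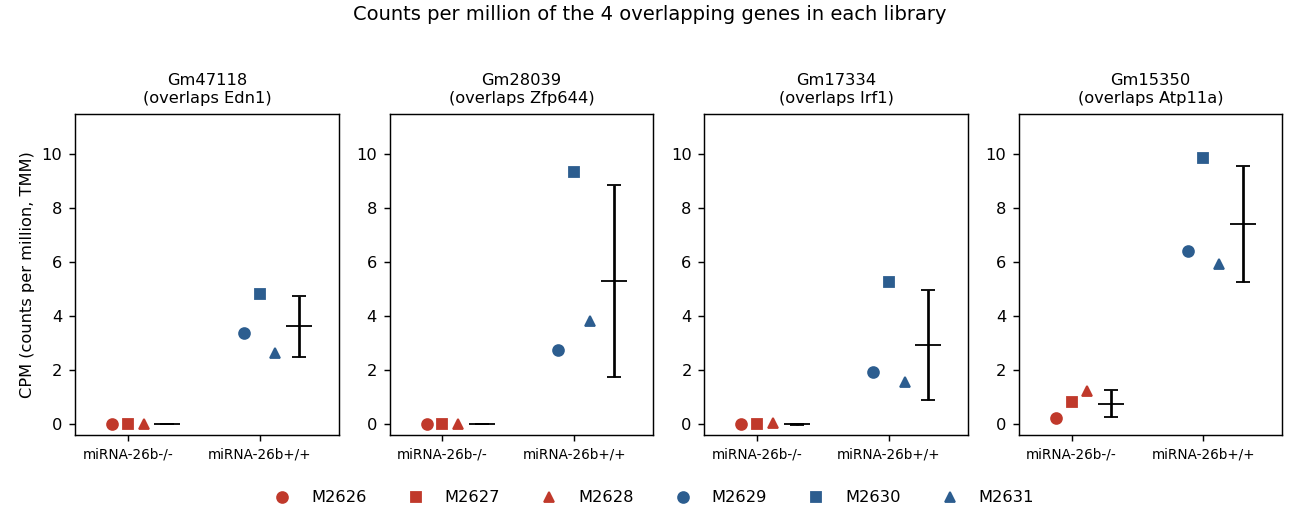
Level of each of the 4 overlapping genes in CPM (scaled by TMM) in each library, with the mean and SD of each genotype (n = 3) in black. Gm47118 and Gm28039 sit at 0 in the 3 miRNA-26b-/- libraries, Gm17334 at 0.0354 CPM or less and Gm15350 at 0.234 to 1.24 CPM, and M2630 is the highest library for all 4 genes.

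All 4 members passed the filter on low counts, and none would have passed on the miRNA-26b-/- libraries alone. They passed through the miRNA-26b+/+ libraries, where they are high, and Gm15350 was also above 1 CPM in M2628, at 1.24 CPM. Non-overlapping groups with miRNA-26b-/- lower were seen in 941 of the 16017 genes tested, 5.88%. At most 3 counts in every miRNA-26b-/- library and more in every miRNA-26b+/+ library was rarer, with 31 genes or 0.194% of those tested. Gm28039, Gm47118 and Gm17334 are 3 of these 31 and hold ranks 1 to 3 among them by mean miRNA-26b+/+ CPM, followed by the pseudogene Gm3365 at 2.63 CPM. Of the 31, 16 share exonic bases with another gene, as do 43.6% of all genes tested. In the reverse direction 20 genes were at most 3 counts in every miRNA-26b+/+ library and more in every miRNA-26b-/- library, of which 4 share exonic bases. Among the 1029 tested genes with at least 50% of their exonic bases shared, 5 were off in this way in miRNA-26b-/-, 0.486%, and of the members only Gm28039 is one of these 1029. As the members were chosen by this contrast, nothing is read from these shares.

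The spread of the members within the miRNA-26b+/+ group was set beside that of genes of like level. The variance of the 3 miRNA-26b+/+ counts divided by their mean was 6.67 for Gm47118, 55.6 for Gm28039, 33.7 for Gm17334 and 10.8 for Gm15350. The median over 1662 to 2207 genes of like level was 23.4 to 25.9, so Gm47118 and Gm15350 varied less between the miRNA-26b+/+ libraries than the median gene at their level, and Gm28039 and Gm17334 more. Per kb of exon, the miRNA-26b+/+ levels were 20.9 CPM for Gm28039, 11.97 for Gm15350, 9.06 for Gm47118 and 3.23 for Gm17334. The known genes stood at 3.16 CPM per kb for Zfp644, 7.78 for Atp11a, 12.9 for Edn1 and 6.57 for Irf1 in the same libraries. In these values Gm28039 and Gm15350 were above their known genes per kb, and Gm47118 and Gm17334 below theirs. A read counts when it touches any exonic base, which raises values per kb for short exons, so no excess is read from them. Each Gm28039 count is also a Zfp644 count, and its 254 bases include 111 that no counted read touched.

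Each member was compared with its known gene library by library, because shared reads are counted for both. By length alone, the 35 shared bases of Edn1 would hold 16.4 of each 1000 Edn1 counts, called the length share here. A read counts when it touches any of these bases, so reads spread evenly would give more counts than the length share. How much more was not worked out, so values above the length share are not read as an excess. Gm47118 had 108, 157 and 131 counts per 1000 Edn1 counts in M2629, M2630 and M2631. It had 0 in M2626, M2627 and M2628, where the length share comes to 8.39, 5.11 and 18.8 counts. The ratio was thus above the length share in all miRNA-26b+/+ libraries and below it in all miRNA-26b-/- libraries. The 365-base exon that Edn1 does not share can also hold counts of Gm47118. It lies in an intron of Edn1, so reads of unspliced Edn1 RNA can count there too. Counts from the shared bases, from Gm47118 and from unspliced Edn1 RNA cannot be told apart in a count table.

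For Gm28039 there is no unshared exon. It had 65.1, 180.0 and 98.6 counts per 1000 Zfp644 counts in M2629, M2630 and M2631, and 0 in the miRNA-26b-/- libraries, against a length share of 10.2. Put in counts, 84, 257 and 116 of the 1290, 1428 and 1176 Zfp644 counts in M2629, M2630 and M2631 touched the 143 shared bases. In M2626, M2627 and M2628 it was 0 of 820, 1033 and 1145, where the length share comes to 8.38, 10.6 and 11.7 counts. The genotypes thus separate in the share of Zfp644 counts that touched these bases, while the gene's own level overlaps between them. That separation follows from the choice of Gm28039, whose counts are those that touched these bases.

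For Gm17334 the length share of Irf1 is 34.0 per 1000. The miRNA-26b+/+ values were 93.2, 170 and 59.0 and the miRNA-26b-/- values 0, 0 and 4.05. It comes to 20.6, 23.3 and 8.39 counts in M2626, M2627 and M2628, where all of Gm17334 had 0, 0 and 1. Whether that 1 read lay on shared bases cannot be told. M2630 again had the highest ratio.

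Gm15350 had 74.6, 99.6 and 79.1 counts per 1000 Atp11a counts in M2629, M2630 and M2631. In M2626, M2627 and M2628 it had 3.98, 12.5 and 12.7, against a length share of 17.8. All 3 miRNA-26b-/- values were below the length share, and all 3 miRNA-26b+/+ values above it. The 420 unshared bases of Gm15350 lie in introns of Atp11a, where reads of Gm15350 and of unspliced Atp11a RNA cannot be told apart in a count table.

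**Figure D3:**
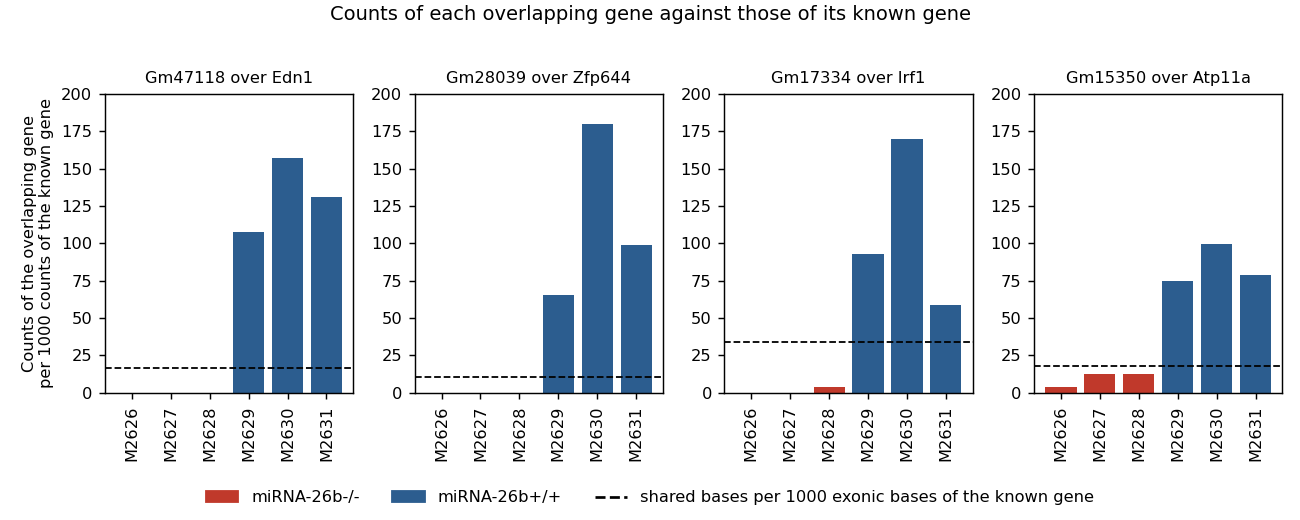
Counts of each overlapping gene per 1000 counts of its known gene in each library (bars), with the shared bases per 1000 exonic bases of the known gene as a dashed line. In all 4 pairs the 3 miRNA-26b-/- libraries lie below the dashed line, at 0 to 12.7, and the 3 miRNA-26b+/+ libraries above it, at 59.0 to 180.0.

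Reads are rarely spread evenly over exons, and the rest of the count table was read for how far counts depart from the length share. It holds 7539 pairs of genes that share exonic bases. In 1075 pairs 1 gene lies wholly within the exons of the other, and in 0 of these did the inner gene have more counts than the outer gene in any library. In the 4 pairs with the same exonic bases, 0 had different counts. Both values are what counting each read for every gene it touches gives. Over 410 wholly nested genes with a length share of at least 20 counts, 38.0% of 2162 values were 0 and the median count was 0.553 times the length share (quartiles 0 and 1.72). Among the 200 of at least 200 bases, 19.5% of 1090 values were 0 and the median count was 1.12 times the length share. Counts of 0 in nested genes are thus common in this table. None of the 4 members lies wholly within the exons of its known gene, and exons that few transcripts hold were not set apart. These values are thus no measure of what the members' shared exons would hold. What is described here for the 4 members is that their values separate by genotype, which is how they were chosen.

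The levels of the known genes were not used to choose the members, though they hold the shared reads. Of all 16017 genes tested, 1036 (6.47%) had an unadjusted p under 0.05 in edgeR's quasi-likelihood test, 544 higher and 492 lower in miRNA-26b-/-, and 1 (0.00624%) had an adjusted p under 0.05. The median log2 fold change of all genes was 0.01. Among the 1029 genes with at least 50% of exonic bases shared, 91 (8.84%) had an unadjusted p under 0.05. None of the 4 known genes was among those called.

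Edn1 was at 20.02, 9.28 and 40.8 CPM in M2626, M2627 and M2628, and at 31.5, 30.8 and 20.2 CPM in M2629, M2630 and M2631. The groups overlap, and the miRNA-26b-/- group holds both the lowest and the highest library. The log2 fold change of miRNA-26b-/- over miRNA-26b+/+ was -0.26 (SE 0.397, edgeR adjusted p = 0.955). It was -0.96 without M2628 (adjusted p = 0.319) and 0.16 without M2627, so these libraries decide its size and sign. The summed level of the 8 endothelial markers was also highest in M2628, at 524, 538 and 1799 CPM in M2626, M2627 and M2628 against 1250, 1697 and 1479 CPM in the miRNA-26b+/+ libraries, and its part in the Edn1 values was not tested. Within the other libraries the order differed from that of Edn1, and not every marker was highest in M2628, where Kdr was lowest of the 6 libraries at 8.82 CPM. In whole vessels, fewer cells of a type and less RNA per cell cannot be told apart.

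Zfp644 was at 32.0, 30.7 and 40.5 CPM in M2626, M2627 and M2628 and at 42.1, 52.0 and 38.9 CPM in M2629, M2630 and M2631. The groups overlap through M2628 and M2631. The log2 fold change was -0.36 (SE 0.220, edgeR adjusted p = 0.830).

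Irf1 was at 23.6, 20.4 and 8.75 CPM in M2626, M2627 and M2628. In M2629, M2630 and M2631 it was at 20.99, 31.1 and 26.3 CPM. M2628 was far below the others, and without it the log2 fold change of -0.57 (SE 0.330, edgeR adjusted p = 0.813) became -0.25. Irf1 was thus lowest in the library where Edn1 was highest.

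Atp11a was at 58.9, 66.7 and 97.2 CPM in M2626, M2627 and M2628 and at 86.1, 99.0 and 75.2 CPM in M2629, M2630 and M2631. Its log2 fold change was -0.22 (SE 0.205, edgeR adjusted p = 0.913), and -0.46 without M2628 (adjusted p = 0.387). The groups overlap, with M2628 close to the highest miRNA-26b+/+ library.

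Taking the counts of each member from those of its known gene in every library gives the level of the known gene with the doubtful reads left out. For Zfp644 this is exact, since every Gm28039 count is also a Zfp644 count. For the other 3 it can take away reads that the known gene never had. The step can only raise miRNA-26b-/- relative to miRNA-26b+/+, as the members were chosen for that direction. Zfp644 then stood at 34.4 ± 5.34 CPM without miRNA-26b and 39.0 ± 3.80 CPM with it (SD, n = 3 each), and its log2 fold change went from -0.36 to -0.18 (SE 0.219, edgeR adjusted p = 0.937). That of Edn1 went from -0.26 to -0.06, that of Irf1 from -0.57 to -0.40 and that of Atp11a from -0.22 to -0.11, with edgeR adjusted p-values of 0.993, 0.894 and 0.966. For all 4 known genes the groups still overlapped.

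**Figure D4:**
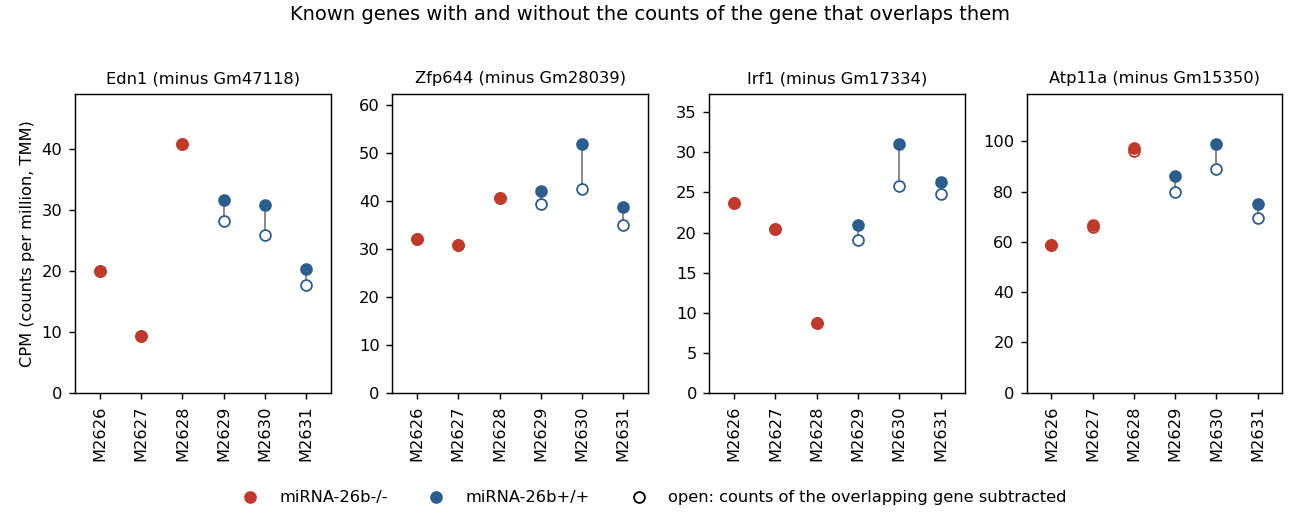
Level of Edn1, Zfp644, Irf1 and Atp11a in CPM in each library (filled points), and after the counts of the overlapping gene were subtracted (open points). The open points lie below the filled ones in the miRNA-26b+/+ libraries, for Zfp644 in M2630 at 42.6 against 52.0 CPM, and on or close to them in the miRNA-26b-/- libraries, and the genotypes overlap in all 4 panels either way.

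The other genes of the known genes' pathways were read from lists of their partners. In the endothelin system, 7 of 9 genes were tested, of which 0 were higher and 2 lower at an unadjusted p under 0.05, and the list's median log2 fold change was -0.06. Ece1, the enzyme that cuts big endothelin to the active peptide and the most abundant gene of the list, had a log2 fold change of -0.65 (SE 0.253, edgeR adjusted p = 0.736). Ednrb, the type B receptor, was at 10.1 ± 1.09 CPM with miRNA-26b and 4.70 ± 1.48 CPM without it (SD, n = 3 each), with groups that do not overlap and an edgeR adjusted p of 0.736. Ednra, the type A receptor of smooth muscle, was at 0.20 on the log2 scale, and Mme, neprilysin, which degrades endothelin, at -0.06. The summed CPM of the list was 171 and 189 in M2626 and M2627 and 305 to 366 in the other 4 libraries. Ece1 made up most of that sum, at 99.0 and 121 CPM in M2626 and M2627. The summed level of the endothelial markers was also lowest in M2626 and M2627. Not every marker followed, as Kdr was lowest in M2628 and Esam in M2631. The part of these markers in the list's sum was not tested.

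Among the interferon regulatory factors and their pathway, 36 of 37 genes were tested, with 2 higher and 1 lower at an unadjusted p under 0.05 and a median log2 fold change of 0.03. Gbp2, an interferon-induced GTPase, was at 0.73 (SE 0.278), and Ciita, the activator of MHC class II genes, at 1.77 (SE 0.728), both with an edgeR adjusted p of 0.736. Jak1, a kinase of the interferon receptors, was at -0.39 (SE 0.172, edgeR adjusted p = 0.749). The most abundant gene, B2m, the light chain of MHC class I, was at 0.02, and the receptor chain Ifngr2 at 0.27. Irf1 itself was lowest in M2628, where the list's sum was 1587 CPM, against 1513 to 1682 CPM over the 6 libraries. Abundant genes make up most of that sum, with B2m at 491 CPM in M2628 against 8.75 CPM for Irf1. It could not show a shift in genes at the level of Irf1.

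Of the phospholipid flippases and their subunits, 14 of 18 genes were tested and 0 were called in either direction by edgeR at an unadjusted p under 0.05, with a median log2 fold change of -0.08. The most abundant were Tmem30a, the shared beta subunit, at 0.03, Atp8b2 at -0.07 and Atp8b1 at -0.09. Of the 12 genes around the G9a/GLP complex, all 12 were tested, and 0 were higher and 1 lower at an unadjusted p under 0.05, with a median of 0.04. The lower gene was Ehmt1, which encodes GLP, at 34.2 ± 3.58 CPM without miRNA-26b and 47.5 ± 2.81 CPM with it (SD, n = 3 each, edgeR adjusted p = 0.741), with groups that do not overlap. Cbx5, which encodes heterochromatin protein 1 alpha, was at 0.22, the corepressor Trim28 at -0.14, and Ehmt2, which encodes G9a, at 0.13. None of the genes on the 4 lists had an adjusted p under 0.05, and beside the 6.47% of all genes tested these counts of 0 to 3 genes a list are given as a description.

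The nearest tested genes on each side of the loci were also read. On the side of Edn1, Hivep1 had a log2 fold change of -0.33 and Phactr1 of -0.11. Beside Zfp644, Zfp326 was at 0.33 and Cdc7, at 0 to 74 counts, at -1.89 (SE 1.56). Beside Irf1, Rad50 was at -0.15 and Gm12216 at -0.14, and beside Atp11a, Tubgcp3 was at -0.01 and Mcf2l at -0.41. None of these 8 had an unadjusted p under 0.05 in edgeR, and the groups overlapped for each.

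The genes most like each member were found from their shares of summed CPM over the 6 libraries, where a likeness of 1 means the same pattern. As the likeness sets genes at or near 0 in the 3 miRNA-26b-/- libraries together, it rests mostly on the 3 miRNA-26b+/+ libraries. Gm47118 was most like Gm47300, an annotated miRNA gene (0.974), Syce1l (0.941) and the olfactory receptor gene Olfr457 (0.926). Gm28039 was most like Gm17334 (0.935), Orm3 (0.928) and Apoo (0.924), and Gm17334 had a likeness of 0.984 to Apoo and 0.935 to Gm28039. Gm15350 was most like Syce1l (0.940), Gm47118 (0.906) and Gm47300 (0.905). Apoo, which encodes a protein of the mitochondrial inner membrane, had 0 counts in M2626, M2627 and M2628 and 42, 101 and 30 in M2629, M2630 and M2631. It shares no exonic base with another gene.

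The likeness of each member to its own known gene and to the other members follows from the choice of members near 0 in miRNA-26b-/-, and is given as a description. It was 0.541 for Gm47118 and Edn1, 0.557 for Gm28039 and Zfp644, 0.577 for Gm17334 and Irf1 and 0.633 for Gm15350 and Atp11a, and it was 0.804 to 0.935 between members. M2630 held 44.5% of the summed CPM of Gm47118, 58.7% of that of Gm28039, 59.8% of that of Gm17334 and 40.2% of that of Gm15350. M2630 was also the miRNA-26b+/+ library with the highest summed CPM of sympathetic neuron markers (47.8), cardiac muscle markers (200), adipocyte markers (546) and endothelial markers (1697), and their part in the member values was not tested. In the miRNA-26b-/- group the same sums ran from 7.61 to 212, 8.11 to 226, 266 to 795 and 524 to 1799 CPM.

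The sums and single genes of other cell type markers were read as well. Schwann cell markers summed to 70.3 to 142 CPM without miRNA-26b and 16.6 to 46.4 CPM with it, with 3 of 4 higher at an unadjusted p under 0.05. Fast skeletal muscle markers summed to 8.39 to 63.8 and 2.18 to 11.2 CPM, which overlap, also with 3 of 4 higher. Sympathetic neuron markers summed to 7.61 to 212 and 9.16 to 47.8 CPM, which overlap, with 2 of 4 higher and the highest sum in M2627. The sums of smooth muscle, fibroblast (4207 to 7628 and 4528 to 5167 CPM) and macrophage markers (98.0 to 285 and 172 to 212 CPM) overlapped between the groups. So did those of erythroid markers, at 83.4 to 867 and 338 to 593 CPM. Of the 6 smooth muscle markers, 1 was lower at an unadjusted p under 0.05. This was Myocd, at 102 ± 36.0 CPM without miRNA-26b and 198 ± 13.1 CPM with it (SD, n = 3 each, edgeR adjusted p = 0.453). Its groups do not overlap. The 4 lymphocyte markers summed to at most 4.59 CPM, and each was at 0 in at least 1 library. None of the markers had an edgeR adjusted p under 0.05. Of all genes tested, 6.47% had an unadjusted p under 0.05 in either direction, and beside that share the counts of markers are given as a description. The part of any of these markers in the member values was not tested.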

How the data were processed

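Total RNA of mouse aorta was sequenced from TruSeq RNA v2 libraries, which do not keep strand. Reads were aligned by the authors to mm10 (GRCm38) with STAR, and the count table was made with featureCounts 1.6.4. Per the file headers it used the GENCODE M21 annotation by gene name and no strand setting, and counted a read over several genes for each of them. The counts deposited by the authors are whole-number reads per gene, with no normalization. A second table with the authors' normalized values and their own fold changes and p-values was not used.

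The 6 libraries were grouped by the genotype label. A gene was kept when its counts summed to 2 or more and its level passed 1 CPM in 2 or more libraries (16017 of 55341 genes). After TMM scaling, edgeR 4.0.16 (R 4.3.3) compared the groups by its quasi-likelihood test, miRNA-26b-/- against miRNA-26b+/+, with Benjamini-Hochberg adjustment over all genes tested. Fold changes of the members are ratios of mean CPM, with a floor of 3 counts. Exon overlaps came from the coordinates in the count table, and sequences from the GENCODE M21 transcripts and RefSeq (GRCm38.p6). Library size, RLE, other filters, DESeq2 1.42.0, limma 3.58.1 voom and leaving out each library were tried as alternatives. The 4 members, their lists and tests were chosen with earlier results of these data known. Genes named are the members, the known genes, the nearest tested genes, list genes with an unadjusted p under 0.05 or among the 3 with the highest mean CPM of their list, and the 3 genes most like each member. 1 gene that this rule names is not reported here. Ednra, Gm3365, Gm28050 and the marker Myocd were added after their values were seen. On simulated counts for 16017 genes, 85% of 200 genes changed by 2 on the log2 scale had an unadjusted p under 0.05 in edgeR. Of unchanged genes 6.21% did. The share of changed genes with an adjusted p under 0.05 was not measured.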

Additional observations from a re-analysis of the deposited data

How the results depend on the processing

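With 3 libraries a group, and a count table that cannot divide a shared read between genes, the source of member counts over shared bases cannot be settled. Of 114 values under alternatives, 103 were labelled the same. For known genes this means the same direction and side of the threshold, and for members a value within the spread. For counts of genes called it means a count within a set ratio of the main count. The log2 fold changes of Zfp644, Irf1 and Atp11a were below 0 under all 14 alternatives each, and none of the 4 known genes had an adjusted p under 0.05 under any. Leaving out 1 library at a time, Edn1 ranged from -0.96 to 0.16, with the reversal (0.16) without M2627. The ratio of Gm15350 ranged from 7.18 to 13.9, the highest without M2628. The bounds ranged from 29.8 to 40.1 for Gm47118, 32.4 to 63.8 for Gm28039 and 17.3 to 35.3 for Gm17334. Genes with an unadjusted p under 0.05 numbered 686 to 1692, against 1036 with all libraries, the most without M2628 and the fewest without M2631. Genes with an adjusted p under 0.05 numbered 0 to 82, against 1, with 82 without M2628. DESeq2 gave 57, limma voom 3 and the earlier quasi-likelihood method of edgeR, an alternative chosen after seeing the data, 0. The causes were not tested. No paired analysis was possible because the labels give the libraries no replicate numbers that groups share.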
